A study of Mus musculus with 24 samples.

Results

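The brain transcriptome of mice lacking the tRNA-Phe-2-1 gene was compared with that of wild-type (WT) mice. These were the 6 brain libraries of 24 libraries in the study whose labels gave the genotypes tRNA-Phe-2-1-/- (replicates A, B and C) and WT (replicates A, B and C). The mice were on a C57BL/6N background, fed normal chow and given no treatment, and the study put its mice at 10 weeks of age. Its methods describe male mice matched for age and litter, and also state that mice from different litters were used. The study's reporting summary names both sexes, without tying a sex to these libraries. The knockout mice were homozygous for a deletion made with CRISPR/Cas9 in embryos and bred to carry the loss of this gene alone. The methods describe total brain RNA from at least 3 mice of each kind, the labels name no brain region, and the one piece size in the labels' protocol, 3 mm by 3 mm, stands with the homogenate for protein. The labels give replicate letters and tie no library to an animal, so p-values measure the spread between these libraries. The same brain table held 3 libraries of tRNA-Phe-1-1-/- brains and 3 of tRNA-Phe-3-1-/- brains, which enter below where a difference between lines was tested. The comparison asks what the loss of this gene changes among brain RNAs.

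Phenylalanine tRNA reads the UUC and UUU codons and brings phenylalanine to the ribosome. Mammalian genomes hold several tRNA genes for the same codon, and copies that share the anticodon but differ elsewhere in the body of the tRNA are called isodecoders. Copies can be transcribed at unequal levels in different tissues, so the loss of a copy may or may not lower the pool of charged tRNA. A shortage of charged tRNA is known to slow ribosomes at its codons, and stalled ribosomes can switch on the integrated stress response, in which the kinase GCN2 and the factor ATF4 raise genes for amino acid supply.

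The Cas9 guide used to make the lines is shown because its target lies in every gene of the family. The site in tRNA-Phe-2-1 is written 5′ to 3′ with the PAM, the motif that Cas9 requires beside its target, in capitals.
tRNA-Phe-2-1: gcgttagactgaagatctaaAGG
The same 20 bases and PAM stood in the guide table of the study for all 7 tRNA-Phe genes, with 0 mismatches, so the guide sequence alone does not set this gene apart. RefSeq placed 7 nuclear tRNA-Phe genes in GRCm38.p6, the build of the files. By the order and the spacing of 6309 bases between the pair of copies on chromosome 19, tRNA-Phe-2-1 was the gene at chr19:12008545-12008617, a 73-base tRNA gene next to tRNA-Phe-1-5. The tables held 0 of the 7 tRNA-Phe genes, so the deletion itself could not be checked in these data.

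Between 31332770 and 46225360 reads were recovered for each of the 6 libraries, the deepest being tRNA-Phe-2-1-/- replicate C. All 10 pan-neuronal markers had at least 1948 normalised counts (read counts divided by a size factor per library) in each of the 6 libraries. Genes that mark brain regions differed widely between libraries. Thalamus genes stood between -0.83 and 1.01 in WT, at -0.81 and -0.61 in knockout replicates A and B and at 2.86 in replicate C, where a list level is the mean log2 deviation of its genes from their mean over the 12 brain libraries. Knockout replicate C was likewise the highest of the 6 for hippocampus (2.43), ependymal (2.20), cerebellum (1.16) and choroid plexus genes (3.48).

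No brain gene differed past the threshold between tRNA-Phe-2-1-/- and WT mice. Of 19228 genes tested with limma, 0 (0%) had an adjusted p under 0.05, and the smallest adjusted p was 0.849. At an unadjusted p under 0.05 there were 1071 genes (5.57%), of which 582 were higher (3.03%) and 489 lower (2.54%). Without knockout replicate B there were 625 such genes, and without WT replicate C there were 566. Genes whose 3 knockout values lay outside the range of the 3 WT values numbered 2201 (11.4%), with 1157 higher (6.02%) and 1044 lower (5.43%). Most differences were small: 90.5% of genes had a log2 fold change within 0.5 of 0, and the median over all genes was -0.00159. The precision limits this statement. The 95% interval of a gene's log2 fold change reached 0.376 to either side for the median gene, and 0.217 for the median of the 6210 genes with at least 1000 normalised counts. The count tests differed from each other: edgeR's quasi-likelihood test on recovered reads called 0 genes, with 1116 at an unadjusted p under 0.05, while DESeq2 called 19 genes (0.0990% of 19187 with an adjusted p), 7 higher and 12 lower.

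**Figure D1:**
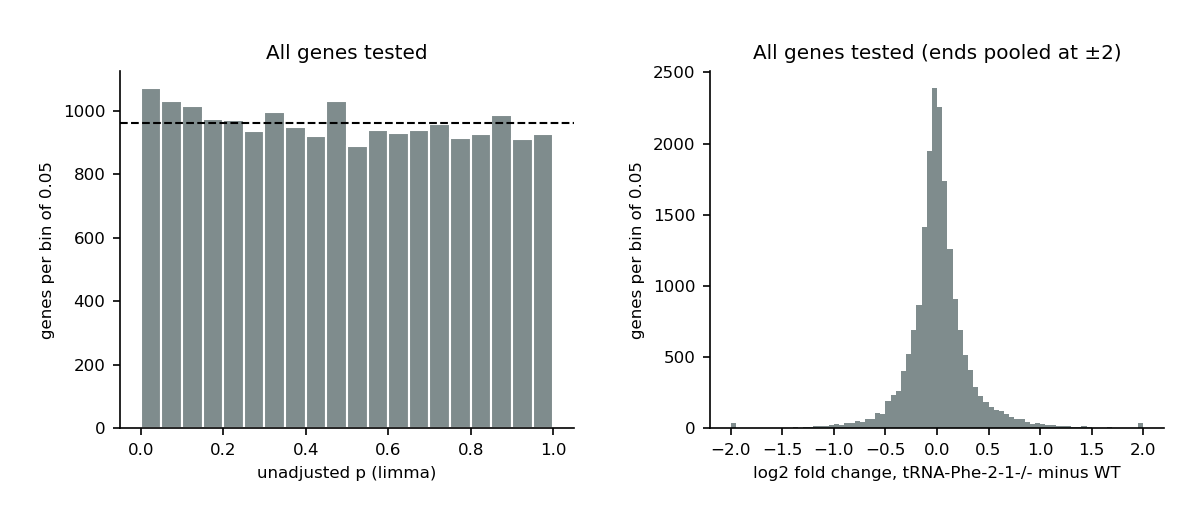
Left, number of genes in each bin of unadjusted limma p for tRNA-Phe-2-1-/- against WT brains, with a dashed line at the mean bin height. The bin below 0.05 held 1071 genes, above the line. Right, distribution of the log2 fold changes of the 19228 genes, centred near 0 with 90.5% of genes within 0.5 and the ends pooled at 2 on either side.

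Camk1g had the lowest unadjusted p of all genes. It encodes a calcium- and calmodulin-dependent protein kinase and lies at chr1:193346346-193370355 (ENSMUSG00000016179.11). Camk1g stood at 836, 1084 and 918 normalised counts in WT replicates A, B and C and at 659, 486 and 547 in the knockout. The groups did not overlap, and the knockout mean was 0.596 of the WT mean (564 ± 87.7 against 946 ± 127 normalised counts, SD, n = 3 each). The log2 fold change was -0.75 ± 0.13 (SE), with a limma adjusted p of 0.849, a DESeq2 adjusted p of 0.00311 and an edgeR adjusted p of 0.856. An exact permutation test of a single gene in 3 against 3 libraries cannot give a p under 0.1. Camk1g also differed between knockout lines, being lower in tRNA-Phe-2-1-/- than in tRNA-Phe-1-1-/- brains by -1.15 ± 0.13 (limma adjusted p = 0.00554). That contrast reuses the tRNA-Phe-2-1-/- libraries that gave Camk1g its low p, so it is no separate support. The tRNA-Phe-1-1-/- brains stood above WT by 0.40. The difference from the tRNA-Phe-3-1-/- line, -0.27 ± 0.13, did not pass.

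Several further genes for neuronal signalling and transcription were lower, and the contrast itself chose them, so their values are a description. Pcsk1, a protease that matures neuropeptides and hormones, had 2697, 3035 and 3470 normalised counts in WT and 2259, 1825 and 1748 in the knockout. Atn1, which encodes the transcriptional corepressor atrophin 1, had 447, 628 and 692 in WT and 267, 290.2 and 243 in the knockout. Zfpm2, a cofactor of GATA transcription factors, had 636, 565 and 867 in WT and 317, 291 and 469 in the knockout. No overlap between groups was part of the choice, so each of these 3 genes was below WT in every knockout library. Their log2 fold changes were -0.66 ± 0.14, -1.12 ± 0.24 and -0.95 ± 0.20. The DESeq2 adjusted p was 0.0343, 0.0168 and 0.0343, while limma gave an adjusted p of 0.887 for each. Col1a1, the collagen chain of fibroblasts, had 543, 314 and 506 normalised counts in WT and 207, 124 and 126 in the knockout (-1.57 ± 0.38, DESeq2 adjusted p = 0.0481, limma adjusted p = 0.892). Of the 9 meningeal fibroblast markers, Col1a1 among them, 7 were lower in mean and Col1a1 was the one with an unadjusted p under 0.05. Lum, a matrix proteoglycan of these cells, had 64.2, 40.2 and 55.3 in WT and 31.8, 54.7 and 87.1 in the knockout. Fth1, the ferritin heavy chain that stores iron, was the most abundant gene of those chosen, at 13610.4 ± 617 normalised counts in WT and 10563 ± 856 in the knockout (-0.37 ± 0.09, limma adjusted p = 0.892).

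The genes that stood higher were chosen in the same way, by low p and no overlap. Cpne4, a calcium-dependent membrane-binding copine at chr9:104566701-105034544 (ENSMUSG00000032564.16), had 1272, 1219.6 and 1078 normalised counts in WT and 2016, 2116 and 2291 in the knockout, or 1.80 times the WT mean (0.85 ± 0.18, DESeq2 adjusted p = 0.0168, limma adjusted p = 0.887). Man2c1, a cytosolic mannosidase, stood at 1730.5, 1734 and 1828 in WT and 2228, 2180.0 and 2093 in the knockout (1.23 times). Skic2, the helicase of the SKI complex that feeds mRNA to the exosome, also in mRNA surveillance at stalled ribosomes, stood at 1775, 1989 and 1887 in WT and 2215, 2480.3 and 2734 in the knockout (0.39 ± 0.09, DESeq2 adjusted p = 0.0393, limma adjusted p = 0.887). Ppp4r4, a regulatory subunit of protein phosphatase 4, stood at 1459, 1518 and 1403 in WT and 1784, 1799 and 1834 in the knockout. By this choice, all 4 genes were above WT in every knockout library. The other higher genes with the lowest p were Dhx32, Usp3, Phb2, Adam15, Sinhcaf and Smim32, at 1.28 to 2.53 times the WT mean, with DESeq2 adjusted p of 0.0516 to 0.0926. Of these, Sinhcaf, a subunit of the SIN3 histone deacetylase complex, also exceeded the tRNA-Phe-1-1-/- line (1.07 ± 0.14, limma adjusted p = 0.0107). That contrast reuses the knockout libraries that led to the choice of Sinhcaf, which differed from WT by -0.48 in tRNA-Phe-1-1-/- brains.

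**Figure D2:**
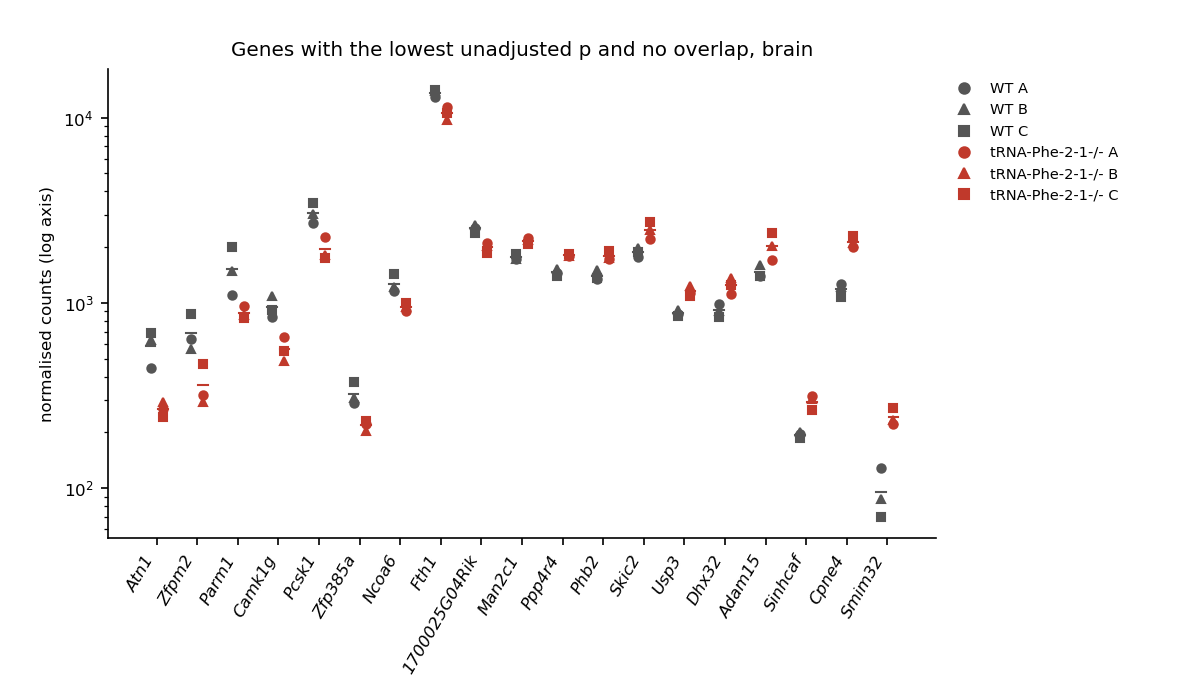
Normalised counts on a log axis for 19 protein-coding genes with at least 50 normalised counts, the lowest unadjusted p in their direction and no overlap between groups, WT in grey and tRNA-Phe-2-1-/- in red, with bars at group means and a marker shape for each replicate letter. Camk1g lies at 836 to 1084 in WT and 486 to 659 in the knockout. Myh6 is left out because the knockout is near 0.

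All 19 genes that DESeq2 called had groups that did not overlap, beside 11.4% of all genes. A low p from 3 against 3 libraries favours such genes, so this follows from the choice. Of the 19, 10 were protein-coding. Among the rest were 4 identifiers without a symbol. Of these, 3 had nearly equal values in each library (for example ENSMUSG00000065767 with 7800, 7714 and 9364 normalised counts in WT and 3235, 4325 and 5155 in the knockout), so reads may be shared between close copies and they are uncertain as separate genes. The DESeq2 calls depended on single libraries. Without knockout replicate B DESeq2 called 3 genes and without WT replicate C 7, of which 0 and 1 were among the 19, and without WT replicate A or knockout replicate C it called 66 and 40, of which 14 and 10 were.

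Myh6, the heart muscle myosin heavy chain, stood apart in the WT libraries of both tissues. It had 481, 28.5 and 18.1 normalised counts in WT brains, 1.03 in knockout replicate A and 0 in replicates B and C. In the liver, in a table normalised separately, the WT libraries had 7.82, 76.1 and 62.3 and the 3 tRNA-Phe-2-1-/- libraries 0 (limma adjusted p = 0.0380 within the liver). The tRNA-Phe-1-1-/- brains had 3.44, 1.04 and 0, and the tRNA-Phe-3-1-/- brains were at 0. No fold is given because the knockout is near 0 (limma adjusted p = 0.849 in the brain). In both tissues the tRNA-Phe-2-1-/- libraries added almost nothing to the mean that the filter on low values uses. A gene that passes in this way can only come out lower in them, so these p-values are a description.

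The genes that charge and modify phenylalanine tRNA gave no member at an unadjusted p under 0.05. Farsa and Farsb encode the subunits of the cytosolic phenylalanyl-tRNA synthetase that charges this tRNA. Farsa had 1056, 948 and 989 normalised counts in WT and 1004, 1026 and 1091 in the knockout, and Farsb 1411, 1409.9 and 1411 in WT and 1356, 1270.3 and 1464 in the knockout. The groups overlapped in both, and the 95% intervals of the log2 fold change were -0.15 to 0.27 and -0.28 to 0.18. The mitochondrial enzyme Fars2 had a log2 fold change of 0.11 ± 0.11. Over the 20 cytosolic aminoacyl-tRNA synthetase genes the median was 0.03, with a range of -0.33 (Iars1) to 0.24 (Vars1), and 0 had an unadjusted p under 0.05. The 9 genes for tRNA-Phe modification, such as Trmt5 and Tyw1, which build the wybutosine base beside its anticodon, had a median of -0.01 and 0 at that level. Among 31 genes of RNA polymerase III and tRNA processing, the machinery that makes tRNA, the median was 0.01. Gtf3c1, the DNA-binding subunit of TFIIIC, was the member with an unadjusted p under 0.05, at 4939.9, 5879 and 5071 normalised counts in WT and 6432, 7054 and 6105 in the knockout (0.30 ± 0.11, limma adjusted p = 0.892). With Pop1, Elac2 and Polr3k, 4 of the 31 lay wholly above WT and 0 below, beside 6.02% and 5.43% of all genes.

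Genes known to respond to stalled ribosomes or missing amino acids also showed little difference. The 23 tested genes of the integrated stress response, 12 of them higher in mean, had a median log2 fold change of 0.03, with 0 at an unadjusted p under 0.05. Without knockout replicate C 2 were lower at this level (3.39% of all genes lower in that fit), and without WT replicate B 1 was (2.21%). The 18 genes for ribosome stalling and rescue and the 9 for translation elongation had medians of -0.01 each, again with 0 at that level. In the stalling list, Gcn1, which senses collided ribosomes for GCN2, had 3069, 3665 and 3382 normalised counts in WT and 3451, 4549 and 3869 in the knockout (95% interval -0.01 to 0.46). Pelo, a ribosome rescue factor, had 298, 293 and 313 in WT and 246, 256 and 287 in the knockout (95% interval -0.42 to 0.03). Ribosomal protein genes had a median of -0.04 with 67 of 81 lower in mean and 0 with an unadjusted p under 0.05. The tally turned on single libraries: 39 were lower without knockout replicate B and 38 without WT replicate A. The list level ranged from -0.07 to 0.08 in WT and from -0.11 to 0.03 in the knockout, so the groups overlapped.

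The neighbours of the deleted gene gave no call. RefSeq listed 113 genes within 1 Mb of the chromosome 19 tRNA-Phe genes, and 16 passed the filter on low values. Their median log2 fold change was -0.12, with 5 higher and 11 lower in mean. Dtx4, a ubiquitin ligase of the Deltex family at chr19:12466329-12502179, was the member with an unadjusted p under 0.05. It had 1529, 1621 and 1872 normalised counts in WT and 1323, 1220.05 and 1275 in the knockout (-0.39 ± 0.16, limma adjusted p = 0.894). Patl1, an mRNA decapping factor, stood at 359, 356 and 401 in WT and 356, 318 and 331 in the knockout. Osbp, an oxysterol-binding protein, had a log2 fold change of 0.01 ± 0.09 and Stx3, a syntaxin of membrane fusion, one of 0.10 ± 0.09.

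Immediate early genes, which neurons switch on within minutes of activity, were the list with the most members at low p. Of 25 genes, 21 were lower in mean, and 10 had an unadjusted p under 0.05, all lower, beside 2.54% of all genes at this level and direction. Their median log2 fold change was -0.57, and 0 passed the adjusted threshold. Npas4, a neuron-specific transcription factor of activity, had 709, 693 and 1201 normalised counts in WT and 126, 267 and 425 in the knockout (-1.78 ± 0.51, limma adjusted p = 0.892). Egr2, a zinc finger factor, had 290.0, 153 and 431 in WT and 108, 56.9 and 134 in the knockout (-1.50 ± 0.41), and Egr1 had 1135, 1841 and 3099 in WT and 936, 592 and 891 in the knockout (-1.24 ± 0.41). In these 3 genes every knockout library was below every WT library. Of the 25 genes, 6 lay wholly below WT and 1 wholly above, beside 5.43% and 6.02% of all genes. Fos stood at 941, 483 and 1501 in WT and 344, 243 and 789 in the knockout, and Arc, the synaptic effector of the list, at 7379, 4125 and 11319.7 in WT and 4027, 2220 and 6139 in the knockout, and both overlapped. Nr4a2, also expressed in certain cortical neurons without stimulation, went the other way, at 494, 338 and 533 in WT and 802, 926 and 709.6 in the knockout (0.85 ± 0.47).

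The level of the immediate early list moved with single libraries. It was 0.23, 0.04 and 0.70 in WT and -0.29, -0.46 and 0.08 in the knockout, so WT replicate C stood highest and knockout replicate C overlapped WT replicate B. Without WT replicate C, 4 genes were lower at an unadjusted p under 0.05 (1.21% of all genes in that fit) and the median was -0.40, and without WT replicate B, 14 were (2.21%). Without knockout replicate B 5 were lower (1.77%) and without knockout replicate A 6 were (2.58%), and without knockout replicate C, the library with the high thalamus and choroid plexus genes, 12 were (3.39%). WT replicate C was also the library with the lowest level of striatum genes, and the part of tissue sampling in the immediate early values was not tested. Per1 and Per2, clock genes that activity also induces, had 929.8, 655 and 1459 and 582, 677 and 931 normalised counts in WT and 596, 607 and 742 and 532, 401 and 440.1 in the knockout. Per2 differed from WT by -0.65 ± 0.16 (limma adjusted p = 0.892) and from the tRNA-Phe-1-1-/- line by -1.66 ± 0.16 (limma adjusted p = 0.00264). That second contrast reuses the tRNA-Phe-2-1-/- libraries, so it is no separate support, and the tRNA-Phe-1-1-/- brains stood above WT by 1.00. Per1 and Per2 belong to the 10 clock genes in phase with Dbp, of which 7 were lower in mean. These 2 had an unadjusted p under 0.05, beside 2.54% of all genes lower. Without knockout replicate A, knockout replicate B or WT replicate C, 1 of the 10 was lower at this level, and without knockout replicate C or WT replicate B 3 were.

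**Figure D3:**
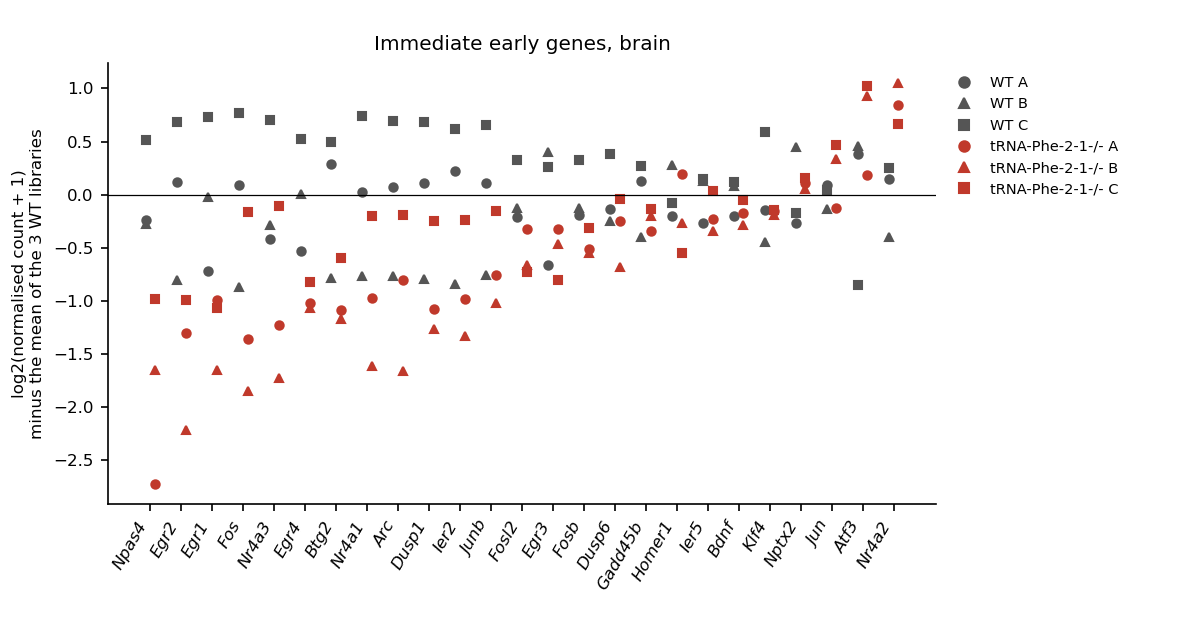
Log2(normalised count + 1) of 25 immediate early genes in each library minus the mean of the 3 WT libraries, WT in grey and tRNA-Phe-2-1-/- in red. The genes run from the largest decrease in mean, Npas4 (-1.78), to Nr4a2 (0.85), with 21 of 25 below 0.

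Erythroid genes were lower in every tested member. All 9, of 14 listed, had a log2 fold change below 0, with a median of -0.82, and 5 had an unadjusted p under 0.05, beside 2.54% of all genes lower at this level, while 0 passed the adjusted threshold. The beta-globin gene Hbb-bt had 980.3, 1191 and 1937 normalised counts in WT and 734, 970.0 and 440.1 in the knockout (-0.95 ± 0.37), and the groups did not overlap, although WT replicate A and knockout replicate B differed by little. Slc4a1, the anion exchanger of red cells, had 16.3, 66.6 and 70.0 in WT and 12.3, 8.93 and 8.12 in the knockout. The globin genes are near-identical pairs, so reads may be split between copies. The enzymes Bpgm and Fech, which other cells also express, stood at WT levels (-0.06 ± 0.10 and -0.02 ± 0.08). Without knockout replicate C or without WT replicate C, 0 of the 9 had an unadjusted p under 0.05 (3.39% and 1.21% of all genes lower in those fits), with medians of -0.48 and -0.55. The median against the same WT libraries was -1.13 in tRNA-Phe-1-1-/- and 0.23 in tRNA-Phe-3-1-/- brains. In bulk tissue fewer red cells and less RNA per cell cannot be told apart.

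Striatum genes were the list that stood highest, but with overlapping groups. All 15 were higher in mean. Their log2 fold changes had a median of 1.182 and a range of 0.47 (Ptpn5) to 1.80 (Adora2a), and Adcy5 was the member with an unadjusted p under 0.05. Drd1, the D1 dopamine receptor of striatal projection neurons, had 1231, 1872 and 415 normalised counts in WT and 3838, 4367 and 1127 in the knockout (1.43 ± 0.97, limma adjusted p = 0.936). Penk, the enkephalin precursor, had 2911, 3436 and 917 in WT and 7479, 8529 and 2248 in the knockout. The summed level of the list lay between 19882 and 53542 normalised counts in WT and between 34182 and 114967 in the knockout, and WT replicate C and knockout replicate C were the lowest of their groups. No marker was at 0 in any library. The median against the same WT libraries was 0.74 in tRNA-Phe-1-1-/- and 0.97 in tRNA-Phe-3-1-/- brains. Without knockout replicate C the median was 1.78, with 7 members at an unadjusted p under 0.05 (4.06% of all genes higher in that fit), and without WT replicate C it was 0.63 with 0.

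**Figure D4:**
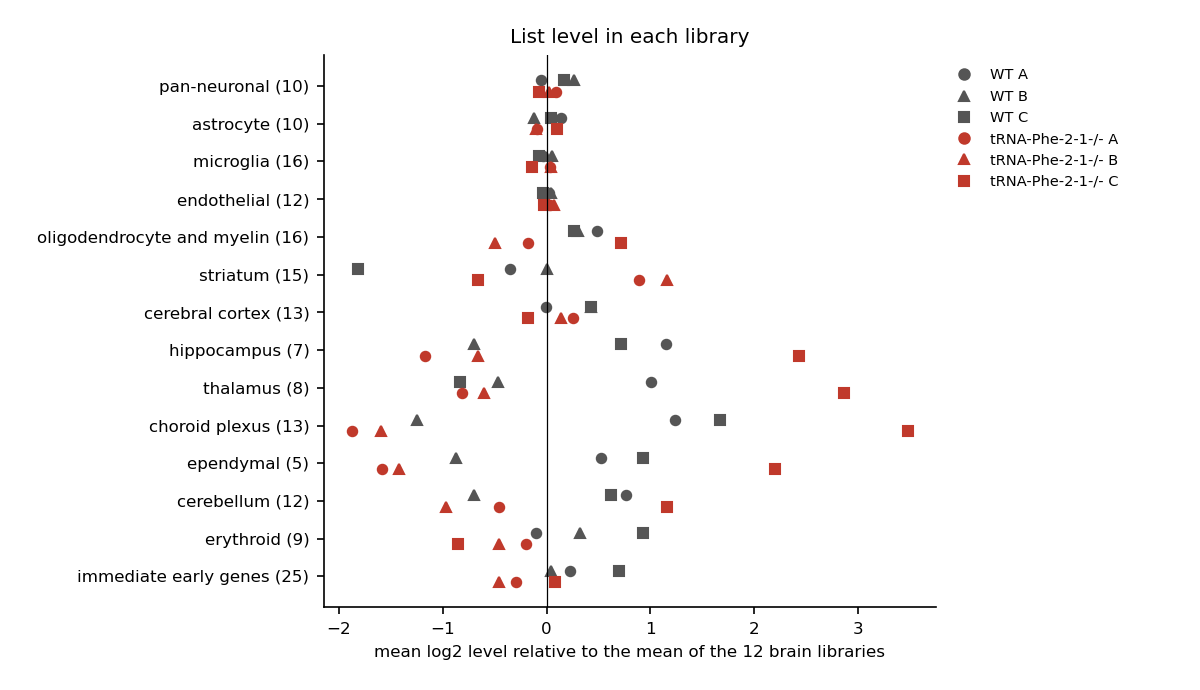
Mean log2 level of each list, with its number of tested genes in brackets, relative to the mean of the 12 brain libraries, WT in grey and tRNA-Phe-2-1-/- in red, with a marker shape for each replicate letter. Microglia genes lie between -0.14 and 0.06 in the 6 libraries, while knockout replicate C (red squares) lies far to the right for choroid plexus (3.48), thalamus (2.86) and hippocampus (2.43) genes.

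Glial and vascular lists differed less between the groups. The 16 oligodendrocyte and myelin genes were all lower in mean, with a median of -0.38 and 0 at an unadjusted p under 0.05. Mbp, a main protein of myelin, had 53491, 49537 and 44757 normalised counts in WT, 31525 and 25309 in knockout replicates A and B, and 54585 in replicate C, the highest of the 6. Without knockout replicate C, 9 of the 16 had an unadjusted p under 0.05, all lower (3.39% of all genes), with a median of -0.74, and without knockout replicate B the median was -0.10. Microglia genes had levels of -0.07 to 0.06 in WT and -0.14 to 0.04 in the knockout, and endothelial genes of -0.04 to 0.04 and -0.03 to 0.07. In these lists 0 of 16 and 0 of 12 had an unadjusted p under 0.05. Choroid plexus genes ranged widely: Ttr, the thyroid hormone carrier made there, had 5965, 486 and 12103 normalised counts in WT, 24.6 and 46.9 in knockout replicates A and B and 49266 in replicate C. Gh, the pituitary growth hormone gene, was at 402 normalised counts in WT replicate C and at most 12.3 in the other 5 libraries.

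Synaptic and calcium-signalling genes gave scattered members at low p. Among glutamate receptor genes, Grin2c, an NMDA receptor subunit, stood at 1099, 1068.5 and 1063 normalised counts in WT and 1194, 1470.1 and 1569 in the knockout (0.38 ± 0.11). The groups did not overlap, and the limma adjusted p was 0.892. In the list of 20 calcium sensors and calmodulin-dependent kinases that includes Camk1g, Vsnl1, which encodes visinin-like 1, stood at 5307, 7076 and 8755 in WT and 5407, 3939 and 3948 in the knockout, and the list median was -0.01. Calb1, calbindin, which buffers calcium in Purkinje cells and other neurons, had 3951, 3734 and 4457 in WT and 5031, 4239 and 3874 in the knockout (0.11 ± 0.21). Calb2, calretinin, had 759, 215 and 351 in WT and 133, 145 and 1406 in the knockout, with the highest value in the replicate C that was rich in thalamus genes. The 5 genes of phenylalanine-rich proteins had a median of -0.02.

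The difference between knockout lines was tested directly, in contrasts in which the WT libraries cancel. Against tRNA-Phe-1-1-/- brains 102 genes differed (0.530% of those tested, limma adjusted p under 0.05), with 26 higher and 76 lower in tRNA-Phe-2-1-/-. The count moved with single libraries: it was 34, 11 and 58 without tRNA-Phe-2-1-/- replicates A, B and C, 27 and 18 without tRNA-Phe-1-1-/- replicates B and C, and 59 without WT replicate C. Fitting the 6 libraries of these lines alone gave 20 genes, and DESeq2 gave 674. Among the 102 limma calls, 12 belonged to the list of endoplasmic reticulum chaperone and folding genes, and all 12 were lower in the tRNA-Phe-2-1-/- line. Hspa5, the BiP chaperone, had 9448, 9147 and 7782 normalised counts in WT and 8498, 6943 and 8295 in the knockout, and differed from WT by -0.15 ± 0.13 and from the tRNA-Phe-1-1-/- line by -0.99 (limma adjusted p = 0.00965). Xbp1, a transcription factor of the unfolded protein response, differed from WT by -0.23 ± 0.08 and from that line by -0.67 (limma adjusted p = 0.00776). The 22 genes of this list had a median of -0.11 against WT in tRNA-Phe-2-1-/- brains, with 4 higher in mean, and of 0.41 in tRNA-Phe-1-1-/- brains. Both comparisons share the WT libraries. Of 17 cytosolic heat shock genes 5 were lower than in tRNA-Phe-1-1-/- brains, Dnajb1 by -0.88 (limma adjusted p = 0.00264). Of 17 glucocorticoid response genes 6 were, beside 76 of all 19228 genes tested. The heat shock list had a median against WT of -0.04 in tRNA-Phe-2-1-/- and 0.47 in tRNA-Phe-1-1-/- brains. The glucocorticoid list had medians of 0.02 and 0.92 in these lines. Of the 102 genes, 19 had an unadjusted p under 0.05 against WT, beside 5.57% of all genes. Both contrasts use the same tRNA-Phe-2-1-/- libraries, which favours such an overlap, so this count is a description.

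Against tRNA-Phe-3-1-/- brains, 0 genes (0%) passed with limma, with a smallest adjusted p of 0.174 and 1910 genes at an unadjusted p under 0.05, and DESeq2 called 166. Without tRNA-Phe-3-1-/- replicate B limma called 2. Of the 25 immediate early genes, 7 were higher in tRNA-Phe-2-1-/- than in tRNA-Phe-3-1-/- brains and 0 lower at an unadjusted p under 0.05, beside 5.76% and 4.18% of all genes. The list median against WT was -0.57 in tRNA-Phe-2-1-/-, -1.01 in tRNA-Phe-3-1-/- and 0.15 in tRNA-Phe-1-1-/- brains. Cpne4 differed from WT by 0.85 in tRNA-Phe-2-1-/-, by 0.84 in tRNA-Phe-1-1-/- and by 0.71 in tRNA-Phe-3-1-/- brains, values that rest on the same 3 WT libraries.

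**Figure D5:**
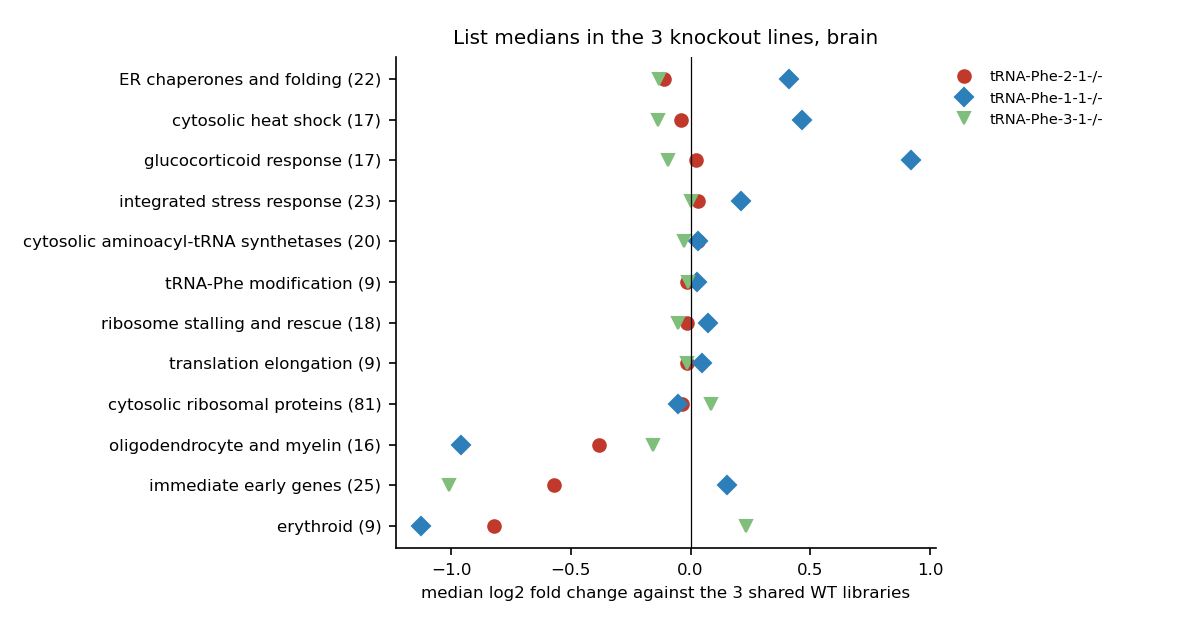
Median log2 fold change against the 3 shared WT brain libraries for 12 gene lists, with the number of tested genes in brackets, in tRNA-Phe-2-1-/- (red circles), tRNA-Phe-1-1-/- (blue diamonds) and tRNA-Phe-3-1-/- (green triangles) brains. Endoplasmic reticulum chaperone and folding genes lie at -0.11 in the tRNA-Phe-2-1-/- line and at 0.41 in the tRNA-Phe-1-1-/- line.

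In the liver of the same line, fitted apart and with no test between tissues, the brain genes with low p gave mixed values. Atn1 had a log2 fold change of -1.49 in the liver (limma adjusted p = 0.0998) beside -1.12 in the brain, and Fth1 one of -0.58 (0.0684) beside -0.37. Man2c1 and Skic2 stood at -0.05 and -0.11 in the liver beside 0.30 and 0.39 in the brain. Camk1g, Cpne4 and Pcsk1 were below the filter on low values in the liver.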

How the data were processed

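Brain RNA was sequenced by the authors on an Illumina NovaSeq after TruSeq library preparation. Per the study's methods and the submitters' processing notes, the authors used Trim Galore for trimming, STAR for alignment to GRCm38.p6 and Salmon for quantification, and DESeq2 size factors gave the deposited normalised counts, a signal comparable between libraries of 1 tissue. Every value was a whole multiple of 1 step per library (100% within 0.001), so whole reads were recovered for count tests. The deposited comparison tables (the authors' means, log2 fold changes and s-values) were not used.

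Log2(normalised count + 1) of the 12 brain libraries was fitted by genotype with limma 3.58.1 (R 4.3.3, mean-variance trend) for the 19228 genes with a mean of at least 10. Two-sided p-values received Benjamini-Hochberg adjustment, and 0.05 was the threshold. The pseudocount keeps fold changes on a log2 scale that understates changes of low genes. edgeR 4.0.16 and DESeq2 1.42.0 tested recovered reads. The limma, edgeR and DESeq2 fits were tested on simulated counts for the contrast with WT. Replicates differed by more than sampling noise. Size factors hold only if few genes moved.

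The comparison, gene lists and naming rule were chosen with earlier results of these data known. The rule named up to 10 protein-coding genes per direction with the lowest p, at least 50 normalised counts and no overlap, those called by count tests, the 3 lowest p of each list, the synthetase and calcium-binding genes and the neighbours. Lum, Tyw1, Elac2, Polr3k, Egr1, Fos, Arc, Nr4a2, Bpgm, Fech, Ptpn5, Adora2a, Drd1, Penk and Hspa5 were added as examples after their values were seen. Symbols came from GENCODE vM39 (93.2% of identifiers) and positions from RefSeq for GRCm38.p6. The guide sequence came from the study's guide table. A withheld item is not reported here.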

Additional observations from a re-analysis of the deposited data

Results flagged for a closer look

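The effect of losing tRNA-Phe-2-1 differed from that of losing tRNA-Phe-1-1 for 102 genes in the brain, by a limma contrast of these lines, in which the shared WT libraries cancel. Each named difference below is the log2 level in tRNA-Phe-2-1-/- minus that in tRNA-Phe-1-1-/- brains, flagged because the contrast passed an adjusted p of 0.05. The contrast uses the same tRNA-Phe-2-1-/- libraries as the comparison with WT, so it is no separate support for that comparison. Sinhcaf was higher by 1.07. Camk1g differed by -1.15 and Gm43305, a gene without a named product, by -0.89. Among chaperone and folding genes, Pdia6 differed by -0.81, Xbp1 by -0.67 and Hyou1 by -0.50. Among heat shock genes, Dnajb1 differed by -0.88 and Hsph1 by -0.62. The clock gene Per2 differed by -1.66, and Fkbp5, a chaperone induced by glucocorticoids, by -1.26. Egr2 differed by -2.24 and Col1a1 by -2.11.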

How the results depend on the processing

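Against WT, limma called 0 genes under every alternative except the fit with no filter on low values, which called 1, Cdh16, at 9.41, 7.40 and 6.77 normalised counts in WT and 0 in the 3 knockout libraries. With the knockout at 0, Cdh16 entered that fit only through other libraries and could only come out lower, so this call is a description. DESeq2 called 19, and 35, 3 and 40 without knockout replicates A, B and C and 66, 15 and 7 without WT replicates A, B and C, these fits chosen after the data were seen. Genes at an unadjusted p under 0.05 numbered 1071, 1765 with no filter and 566 to 1432 with 1 library left out. With the replicate block, 0 genes passed and 1119 had an unadjusted p under 0.05. Same-letter libraries had deviations correlated at -0.13, 0.22 and 0.15, so the letters were not taken as pairs, and the cause was not tested. Against tRNA-Phe-1-1-/- the 102 calls became 62 with no variance trend, 20 with only those groups, 674 with DESeq2, and 11 to 82 with 1 library left out. Against tRNA-Phe-3-1-/- the 0 calls became 1, 6 and 166 in those fits, and 0 to 2 with 1 library left out.

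Of 180 named genes, 25 changed direction under some alternative. The sign turned positive in edgeR and DESeq2 for Ttr (1.42 and 1.41), Folr1 (0.82 and 0.79), Tmem212 (0.65 and 0.59), Ccdc153 (0.91 and 0.87), Dynlrb2 (0.22 and 0.18), C1ql2 (0.53 and 0.51) and Calb2 (0.36 and 0.35), and negative for Ms4a7 (-0.0215 and -0.0222), while Eef2 reached 0.0260 under quantile normalisation. With 1 library left out, log2 fold changes spanned 0 in Bmal1 (-0.00400 to 0.18), Ccdc153 (-2.745 to 0.40), Dynlrb2 (-1.38 to 0.27), C1ql2 (-2.398 to 0.16), Fibcd1 (-0.77 to 0.37), Igfbp2 (-0.0842 to 0.35), Csf1r (-0.0464 to 0.22), mt-Nd6 (-0.00550 to 0.33), AW112010 (-0.39 to 0.10), Cntf (-0.47 to 0.12), Lpxn (-0.0604 to 0.25), Mrpl16 (-0.0444 to 0.0447), Ms4a6c (-0.39 to 0.12), Ms4a7 (-0.41 to 0.55), Osbp (-0.0688 to 0.0509), Prl (-2.24 to 1.10), Gh (-2.38 to 1.504), Tyw3 (-0.0505 to 0.31), Lef1 (-0.30 to 1.12), Gbx2 (-0.36 to 2.81) and Calb2 (-1.46 to 0.23). Of 828 list medians recomputed under the alternatives, 5 moved by more than the spread between replicates.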

Other observations

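Chat and Slc18a3, which encode the enzyme and the vesicular transporter of acetylcholine, were higher in every tRNA-Phe-2-1-/- library. Chat had 54.7, 83.5 and 24.8 normalised counts in WT and 221, 199.8 and 178 in the knockout, and Slc18a3 had 20.5, 15.9 and 2.26 in WT and 62.6, 48.0 and 34.0 in the knockout. Against the same WT libraries Chat differed by 2.01 in tRNA-Phe-2-1-/-, 1.67 in tRNA-Phe-1-1-/- and 1.83 in tRNA-Phe-3-1-/- brains, and Slc18a3 by 2.18, 1.84 and 1.58, on the log2 scale. Cholinergic interneurons are cells of the striatum, whose marker genes were also higher in mean, and the part of tissue sampling was not tested. Their limma adjusted p was 0.894, as for the lower values of Syt2, a calcium sensor of synaptic vesicles, with 3481, 2217 and 2666 in WT and 2172, 1943 and 2042 in the knockout. Fezf2, a transcription factor of deep cortical projection neurons, had 326, 506 and 668 in WT and 251, 191 and 262 in the knockout, while Cux1, a marker of upper cortical layers, had 4219.7, 3904 and 3965 in WT and 5141, 5273 and 4413 in the knockout (limma adjusted p = 0.892 for both).

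Of 82 nuclear respiratory chain genes, 60 were lower in mean, but 27 without knockout replicate B and 43 without WT replicate A. The median log2 fold change was -0.03 (0.02 without knockout replicate B), and Atp5pf, a subunit of ATP synthase, was the member with an unadjusted p under 0.05, at 2044, 1996 and 2089 normalised counts in WT and 1906, 1899.8 and 1723 in the knockout. Of 23 interferon response and MHC class I genes, 9 were higher in mean, the median was -0.04 and 0 had an unadjusted p under 0.05 with limma. MHC class II genes had a median of -0.34 with 3 of 4 lower in mean. Of 10 blood leukocyte genes 7 were lower in mean, with a median of -0.22, and S100a9, a neutrophil calcium-binding protein, had 25.7, 29.6 and 144 normalised counts in WT and 13.3, 4.46 and 23.6 in the knockout (-1.98 ± 0.83, limma adjusted p = 0.894).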
